A study of Mus musculus with 6 samples.

Results

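The genes described here are 8 named lymphocyte receptor genes among the 21978 entries of a gene table from mouse embryonic stem cells: Cd3d, Cd3e, Cd3g, Cd247, Fcgr2b, Gpr83, Cd79a and Cd79b. They were picked by symbol. Cd3d, Cd3e, Fcgr2b, Gpr83 and Cd79a had been picked because their levels differed between the groups below, so for these 5 genes the values are a description and carry no test. Cd3g, Cd247 and Cd79b were added as partners in the same complexes and were tested. All 8 genes were listed with earlier results of these data known, so these tests are not independent of that choice.

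Poly(A)-selected RNA of 6 cultures was sequenced, 2 in each of 3 groups that differ in DGCR8, a protein that binds primary miRNA transcripts in the nucleus and lets Drosha cut them. E518K cells (libraries 8 and 15, genotype label DGCR8 E518K/E518K) were transfected with a Sleeping Beauty transposon vector for Flag-tagged DGCR8 carrying the E518K substitution, pSB ET iE-FlagDGCR8-E518K, together with the transposase plasmid pCMV(CAT)-SB100X. KO cells (libraries 1 and 3, genotype label DGCR8 -/-) were not transfected, and both titles carry the clone number 261, so their spread may be technical. Wild-type cells, called wt (libraries 12 and 16, genotype label DGCR8 wt/wt), carried pSB ET iE-FlagDGCR8-wt and the same transposase plasmid. All 6 cultures, KO included, received 300 ng/mL doxycycline for 48 h and grew without feeder cells in 2i medium with LIF (strain label NBA1-19349, Novus Biochemicals). The sources used here do not say whether the wt and E518K lines descend from KO cells, and KO differs from both also in having no vector.

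On T cells the antigen receptor has no signalling tail of its own and relies on the CD3 chains, gamma, delta and epsilon, and on the zeta chain encoded by Cd247, whose cytoplasmic ITAM motifs are phosphorylated by the kinase Lck and then bind Zap70. Cd79a and Cd79b encode the pair of chains that do the same work for immunoglobulin on B cells, upstream of Lyn and Syk. Fcgr2b encodes the Fc receptor that inhibits B-cell receptor signalling when it binds immune complexes, and Gpr83 encodes a G protein-coupled receptor, known from regulatory T cells and brain, that is induced by glucocorticoids and responds to the neuropeptide PEN.

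The group labels were checked first on Dgcr8, whose level set KO apart but did not tell E518K from wt. Dgcr8 had 620 ± 283 CPM, or counts scaled to library size, in E518K, 38.5 ± 2.0 in KO and 594 ± 563 in wt (SD, n = 2 each). The wt libraries 12 and 16 had 195.5 and 992.4 CPM. Dgcr8 was lower in KO than in wt by a log2 fold change of -3.95 ± 0.73 (SE, edgeR adjusted p = 0.00316). Between E518K and wt it differed by 0.06 ± 0.64 (edgeR adjusted p = 0.953). Leaving out KO library 1, KO library 3 or wt library 16 ended the call in KO against wt, with values of -4.00, -3.89 and -2.35. Library totals ranged from 73642784 to 75121971 counts. Of 16498 genes kept by a filter on low counts, 23.7% differed at an adjusted p under 0.05 between E518K and wt, 57.2% between KO and wt, and 41.8% between E518K and KO, so a call is common in the last 2. In these comparisons 11.3%, 27.4% and 22.0% of genes rose, and 12.5%, 29.7% and 19.8% fell. The number of calls between E518K and wt, 3917, was 644 without E518K library 15, 1650 without E518K library 8, and 1908 and 1907 without KO library 1 or 3, and was 6987 without wt library 16. Between KO and wt there were 9429 calls, and 6196 and 6084 without KO library 1 or 3. Between E518K and KO there were 6902, and 3285, 3306 and 4042 without KO library 1, KO library 3 or E518K library 8.

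The cells carried the markers of embryonic stem cells. Summed over 10 such markers, among them Pou5f1, Nanog and Sox2, the level was 6880 and 6951 CPM in E518K, 5657 and 5571 in KO, and 7543 and 6529 in wt. Markers of leukocytes were mixed, some at or near 0 and others well above it. Ptprc, the pan-leukocyte phosphatase CD45, had 7 and 2 counts in E518K, 10 and 2 in KO, and 2 and 0 in wt, and the lymphocyte interleukin receptor gene Il7r had 0 in all 6 libraries. Cd8a, Cd53, Cd48, Cytip, Ms4a1, Blk and Cr2 stayed at 6 counts or fewer in each library. Of the 14 pan-leukocyte markers, 4 were under 10 counts in 5 of the libraries and 5 in wt library 12. The others included Laptm5, with 19979 to 22081 counts, Was, with 332 to 654, Itgal, with 180 to 541, Lcp1, with 128 to 486, and Cd52, with 96 to 522. Of 9 T-cell markers found in the table the summed level was 23.7 and 23.8 CPM in E518K, 17.6 and 18.5 in KO, and 23.7 and 16.7 in wt. That sum is mostly Lck, with 1325 and 1340 counts in E518K, 862 and 1006 in KO, and 1214 and 777 in wt. Cd4 and Cd2, singled out after their values were seen, had their lowest counts in wt, as the CD3 genes had. Cd4 had 115 and 148 counts in E518K, 153 and 134 in KO, and 49 and 45 in wt. Cd2 had 36 and 46 counts in E518K, 93 and 89 in KO, and 34 and 24 in wt. Zap70 and Thy1 went the other way, with their highest counts in wt. Zap70 had 146 and 130 counts in E518K, 196 and 130 in KO, and 326 and 264 in wt. Thy1 had 77 and 68 counts in E518K, 54 and 49 in KO, and 86 and 120 in wt. Of the 5 tested T-cell markers, 1 rose and 1 fell in E518K against wt, 2 rose and 2 fell in KO against wt, and 0 rose and 1 fell in E518K against KO by edgeR. Over all tested genes, 23.7%, 57.2% and 41.8% passed in these comparisons. The part of the T-cell markers in the CD3 values was not tested. The 7 B-cell markers found summed to 3.62 and 3.72 CPM in E518K, 4.15 and 4.19 in KO, and 5.41 and 4.83 in wt. The pan-leukocyte markers, whose sum is mostly Laptm5, summed to 304.7 and 314.1 CPM in E518K, 301.6 and 295.4 in KO, and 328.0 and 334.3 in wt. The sums of 10 myeloid markers, mostly Cd68 and Csf1r, lay between 38.2 and 43.8 CPM in all 6 libraries. The 9 fibroblast markers summed to 5.58 and 4.36 CPM in E518K, 7.11 and 7.84 in KO, and 8.39 and 8.88 in wt.

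Cd3g, Cd3d and Cd3e lie side by side on chromosome 9 (GRCm38, GENCODE M21). Cd3g runs from 44969572 to 44980431 on the minus strand, Cd3d from 44981786 to 44987339 on the plus strand and Cd3e from 44998740 to 45009627 on the minus strand. Cd3g and Cd3d are thus transcribed away from each other, with 1354 bases between their spans, and 11400 bases separate Cd3d from Cd3e. The deposited counts appear to follow the whole genomic span of a gene, introns included, on either strand. Because the 3 spans do not overlap, a read that lies within one span cannot count for another. Cd3e does overlap 2 noncoding models that have no row in the table, the antisense Gm48719 over 3557 bases and Gm48720 over 1206 bases, and reads from these would count for Cd3e.

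The promoters of the 3 CD3 genes are shown because all 3 genes were higher in E518K and KO than in wt. Each runs from 250 bases before to 50 bases after the annotated start in RefSeq (GRCm38.p6), on the strand of the gene, at chr9:44980382-44980681 for Cd3g, chr9:44981536-44981835 for Cd3d and chr9:45009562-45009861 for Cd3e. Capitals mark matches to the motifs searched on both strands.
Cd3g promoter: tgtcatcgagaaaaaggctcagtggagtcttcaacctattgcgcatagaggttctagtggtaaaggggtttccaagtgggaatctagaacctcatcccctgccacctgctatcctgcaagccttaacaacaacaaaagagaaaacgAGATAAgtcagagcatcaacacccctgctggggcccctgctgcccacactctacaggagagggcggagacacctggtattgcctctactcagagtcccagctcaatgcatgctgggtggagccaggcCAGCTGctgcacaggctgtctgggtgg
Cd3d promoter: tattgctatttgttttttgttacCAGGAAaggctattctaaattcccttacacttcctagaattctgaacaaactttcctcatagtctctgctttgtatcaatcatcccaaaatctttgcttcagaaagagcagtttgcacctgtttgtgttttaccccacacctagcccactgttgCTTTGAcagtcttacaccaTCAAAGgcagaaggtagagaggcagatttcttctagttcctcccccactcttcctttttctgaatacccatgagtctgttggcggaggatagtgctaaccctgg
Cd3e promoter: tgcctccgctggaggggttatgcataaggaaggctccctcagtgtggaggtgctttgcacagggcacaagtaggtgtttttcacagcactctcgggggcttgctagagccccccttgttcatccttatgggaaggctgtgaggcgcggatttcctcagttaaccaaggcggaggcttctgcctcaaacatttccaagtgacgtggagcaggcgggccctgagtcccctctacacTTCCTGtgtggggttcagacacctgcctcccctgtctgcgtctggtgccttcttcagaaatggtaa
The motif searched for the core promoter box was TATAAA. Those of lymphoid transcription factors were CAGCTG for an E-box, which reads the same on both strands, TGTGGT for RUNX factors, CAGGAA for ETS factors, AGATAA for factors of the GATA family and CTTTGA for TCF and LEF factors. The Cd3g window holds the E-box, which 16.3% of 32851 promoters hold, and the letters of the GATA family, held by 11.2%. The Cd3d window holds the ETS letters, held by 30.6%, and the TCF/LEF letters on each strand, held by 16.0%, and the Cd3e window holds the ETS letters on the opposite strand. No motif was found in all 3 windows, and none of the 3 holds the core box or the RUNX letters, which 13.6% and 16.8% of promoters hold. The windows differ in composition, with 4, 1 and 8 CpG dinucleotides in Cd3g, Cd3d and Cd3e, against a median of 7 over all promoters.

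All 3 CD3 genes were higher in E518K and in KO than in wt. In such bulk RNA, more cells that express a gene and more RNA per cell cannot be told apart. Cd3d, the delta chain, had 150 and 334 counts in E518K, 424 and 386 in KO, and 34 and 26 in wt. Both KO libraries stood above both E518K libraries, which in turn stood above wt, and the E518K libraries differed from each other more than those of the other groups did. Per length the levels were 3.83 ± 2.11 TPM, or counts scaled to gene length and library size, in E518K, 6.46 ± 0.39 in KO and 0.488 ± 0.072 in wt (SD, n = 2 each). TPM here is scaled to the genomic span of each gene, so it is not a level of spliced mRNA. The fitted log2 fold changes were 3.02 ± 0.41 in E518K against wt, 3.67 ± 0.42 in KO against wt and -0.65 ± 0.35 in E518K against KO (SE). The last value was -0.19 without E518K library 8 and -1.31 without E518K library 15.

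Cd3e, the epsilon chain, which pairs with either gamma or delta, had 608 and 681 counts in E518K, 701 and 691 in KO, and 148 and 200 in wt. Its levels were 5.19 ± 0.50 TPM in E518K, 5.67 ± 0.02 in KO and 1.45 ± 0.37 in wt. E518K and KO overlapped once scaled to library size, and both lay clear of wt, with log2 fold changes of 1.90 ± 0.18 in E518K against wt and 1.92 ± 0.18 in KO against wt. The difference of E518K and KO was -0.02 ± 0.17, and 0.06 without E518K library 8. Cd3e was the highest of the 3 CD3 genes per length in wt, and Cd3d in KO.

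Cd3g, the gamma chain, was listed as a partner of Cd3d and Cd3e, and it rose with them. It had 160 and 238 counts in E518K, 270 and 272 in KO, and 30 and 48 in wt. In both comparisons with wt every library lay above both wt libraries. Its levels were 1.61 ± 0.47 TPM in E518K, 2.21 ± 0.03 in KO and 0.328 ± 0.119 in wt. Cd3g rose by 2.36 ± 0.31 on the log2 scale in E518K against wt (edgeR adjusted p = 0.00387) and by 2.72 ± 0.31 in KO against wt (edgeR adjusted p = 0.000421). E518K and KO differed by -0.36 ± 0.28 (edgeR adjusted p = 0.337), a value that was -0.10 without E518K library 8 and -0.64 without E518K library 15. Both calls against wt held under all 14 alternative settings. On the log2(TPM + 1) scale, on which changes of low genes are understated, the limma values were 0.97 in E518K against wt and 1.28 in KO against wt (limma adjusted p = 0.0181 and 0.00231).

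**Figure D1:**
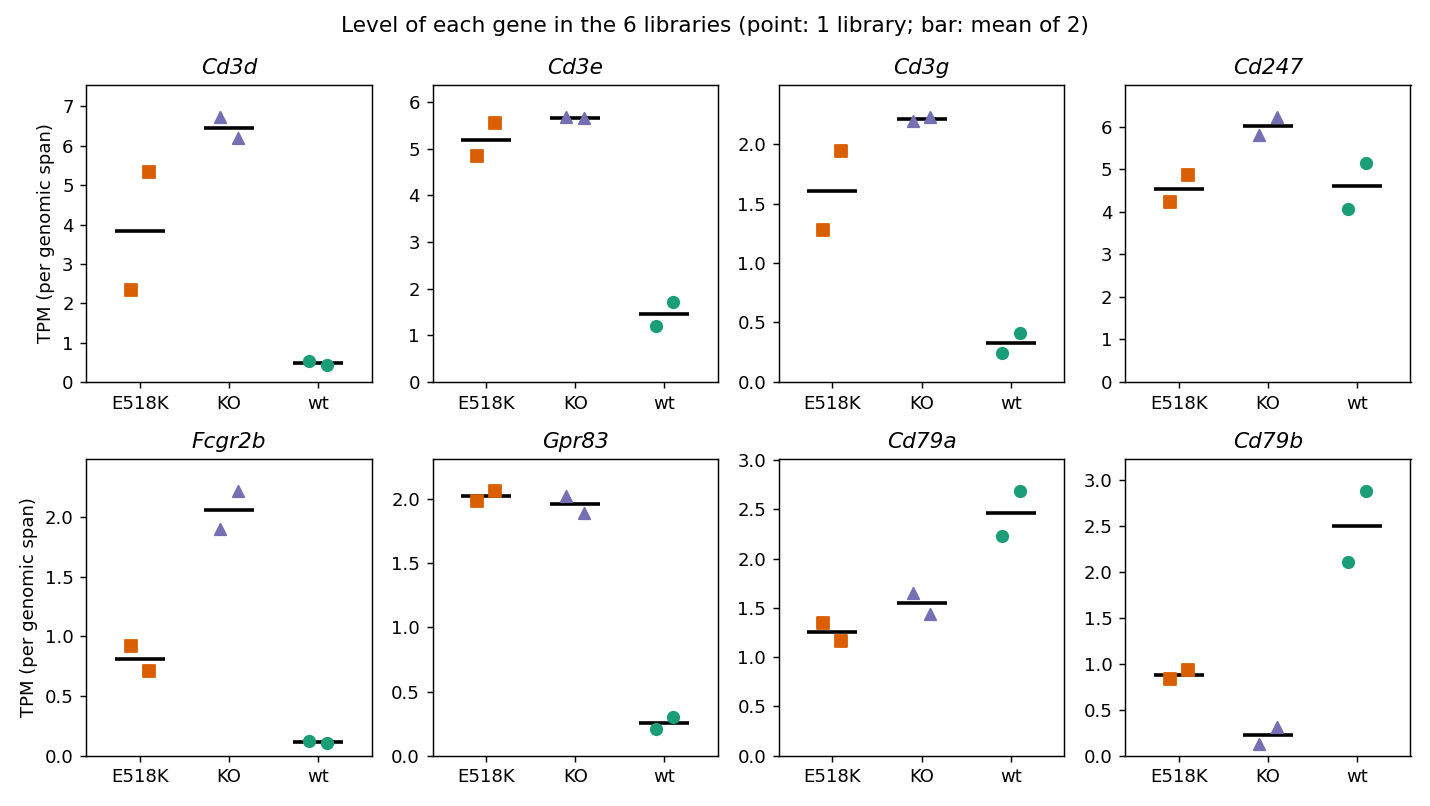
Level of each of the 8 genes in TPM, scaled to genomic span (vertical axis, from 0), in the 2 libraries of E518K, KO and wt (horizontal axis). Points are libraries and bars are the means of 2. Cd3d, Cd3e, Cd3g, Fcgr2b and Gpr83 are lowest in wt, Cd79a and Cd79b are highest in wt, and the 3 groups of Cd247 lie between 4.06 and 6.23 TPM.

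The 3 CD3 genes did not keep a fixed proportion to one another. The count of Cd3d divided by that of Cd3e was 0.247 and 0.490 in E518K, 0.605 and 0.559 in KO, and 0.230 and 0.130 in wt. For Cd3g over Cd3e the ratio was 0.263 and 0.349 in E518K, 0.385 and 0.394 in KO, and 0.203 and 0.240 in wt. Relative to Cd3e, both were thus highest in KO and lowest in wt, with the E518K value of Cd3d nearest to wt in library 8. Among the 8 genes, the patterns over the 6 libraries most alike were those of Cd3e and Cd3g, with a root mean square difference of 0.341 in centred log2 CPM, and of Cd3g and Gpr83, at 0.342. Cd3d differed from Cd3g by 0.503 and from Fcgr2b by 0.502 on this measure.

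The genes around the CD3 cluster had smaller differences from wt. Because Cd3d and Cd3e were picked for their differences, with Cd3g as their partner, and the neighbours were not, nothing is read from that contrast. Of 9 neighbours within 200 kb that were tested, 0 passed in E518K against wt by edgeR at an adjusted p under 0.05, whereas 4 rose and 2 fell in KO against wt and 2 rose and 2 fell in E518K against KO. Over all tested genes, 23.7%, 57.2% and 41.8% passed in these comparisons. At an unadjusted p under 0.05, 3 rose and 2 fell in E518K against wt, and by DESeq2 1 rose. Ube4a, a ubiquitin ligase gene 3971 bases beyond Cd3g, had 54.7 ± 2.6 CPM in E518K, 60.4 ± 2.1 in KO and 47.7 ± 3.4 in wt, a rise in KO of 0.34 ± 0.08 (edgeR adjusted p = 0.00956). Mpzl2, an adhesion molecule gene 30171 bases beyond Cd3e, had 65.5 ± 0.02 CPM in E518K, 67.4 ± 2.2 in KO and 57.2 ± 0.2 in wt, a rise in KO of 0.24 ± 0.06 (edgeR adjusted p = 0.0162). The Ube4a call was lost without KO library 1 or 3 (edgeR adjusted p = 0.0952 and 0.0508), and so was that of Mpzl2 (edgeR adjusted p = 0.176 and 0.0858). Over the 9 neighbours the log2 fold changes in KO against wt ran from -1.51 to 1.45, with a median of 0.34, all below those of the 3 CD3 genes. The largest, that of Scn4b, was imprecise at 1.45 ± 0.88.

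**Figure D2:**
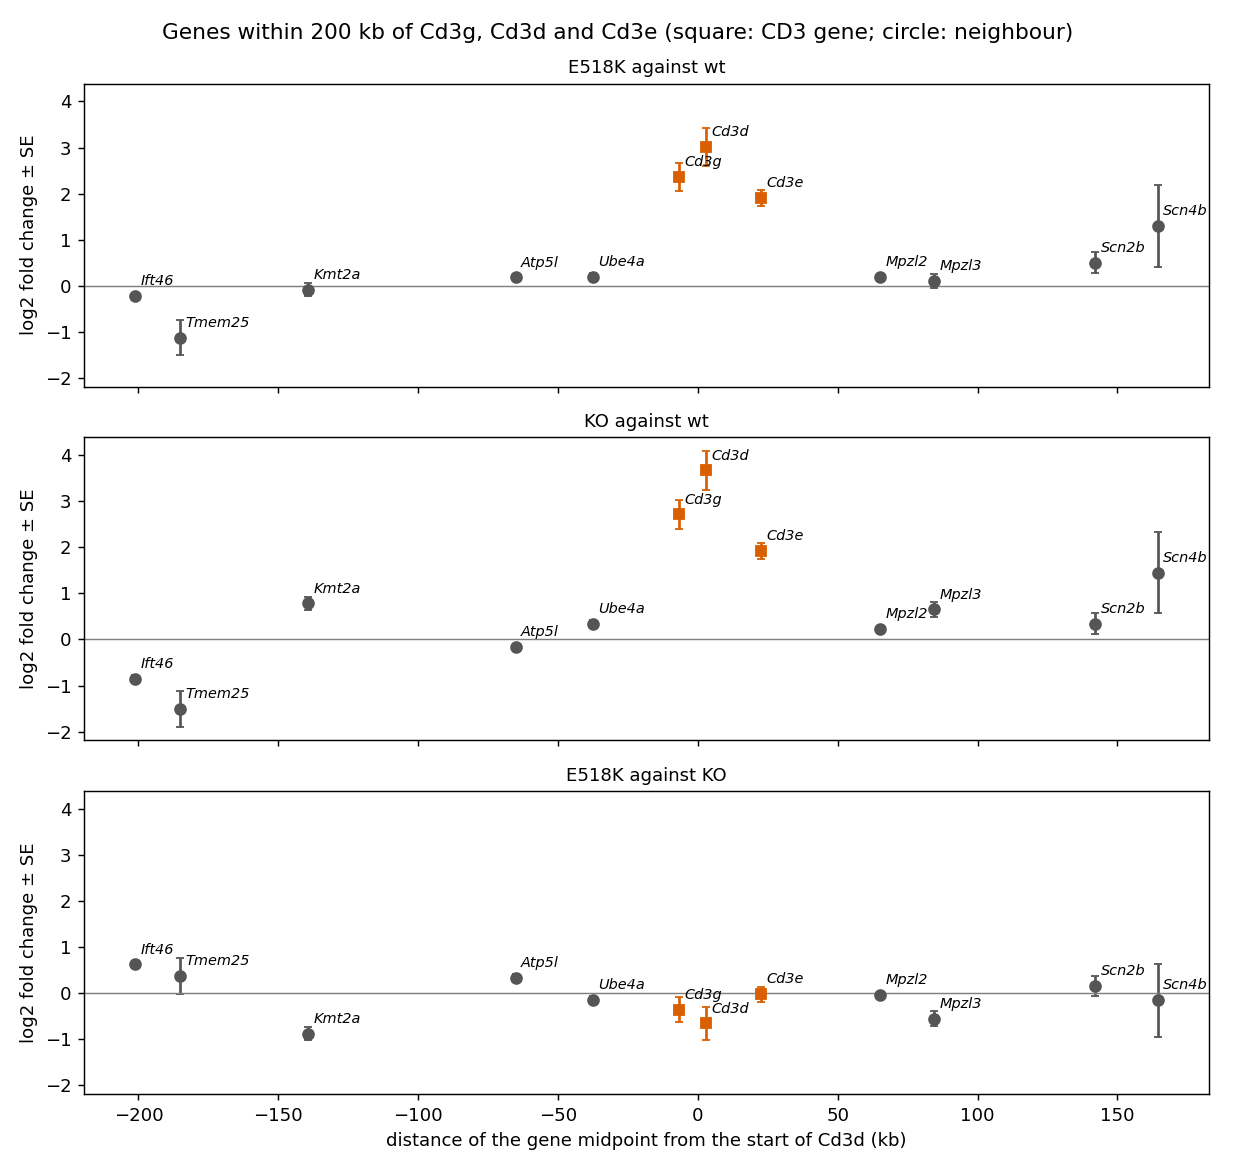
Fitted log2 fold change with its SE (vertical axis) of the 3 CD3 genes, drawn as squares, and of the 9 tested neighbours, drawn as circles, against the distance of the gene's midpoint from the start of Cd3d in kb (horizontal axis), for E518K against wt, KO against wt and E518K against KO from top to bottom. In both comparisons with wt the CD3 genes lie above every neighbour, but Cd3d and Cd3e were picked for their differences, with Cd3g as their partner.

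Cd247, the zeta chain gene, lies on chromosome 1 (165788681 to 165877277, plus strand) and did not follow the other chains. It had 4330 and 4862 counts in E518K, 5833 and 6205 in KO, and 4092 and 4895 in wt, and 4.55 ± 0.45 TPM in E518K, 6.02 ± 0.30 in KO and 4.61 ± 0.77 in wt. Its span is long and 6.01% exonic, and the last 12124 bases overlap Pou2f1, which encodes a broadly expressed POU transcription factor and runs on the opposite strand. Counting appears to have taken no account of strand, so reads of Pou2f1 in this stretch would count for Cd247 too. The shared stretch holds 10984 of the 16597 exonic bases of Pou2f1 and 3376 of the 5329 exonic bases of Cd247.

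The counts of the overlapping pair ran together. The ratio of Cd247 to Pou2f1 counts was 0.915 and 0.918 in E518K, 0.926 and 0.923 in KO, and 0.920 and 0.906 in wt, a range much narrower than that of the CD3 ratios above. Cd247 rose by 0.35 ± 0.10 on the log2 scale in KO against wt (edgeR adjusted p = 0.0191), was lower by -0.30 ± 0.10 in E518K than in KO (edgeR adjusted p = 0.0443) and differed by 0.05 ± 0.10 between E518K and wt (edgeR adjusted p = 0.75). Pou2f1 rose by 0.33 ± 0.10 in KO against wt (edgeR adjusted p = 0.0267). The KO call of Cd247 was lost without KO library 1 or 3 (edgeR adjusted p = 0.061 and 0.129), as was that of Pou2f1 (edgeR adjusted p = 0.0728 and 0.16). The call of Cd247 in E518K against KO was lost without KO library 1, KO library 3, E518K library 8 or E518K library 15 (edgeR adjusted p = 0.126, 0.245, 0.239 and 0.0831). How much of the Cd247 value is zeta chain RNA cannot be told from these counts.

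**Figure D3:**
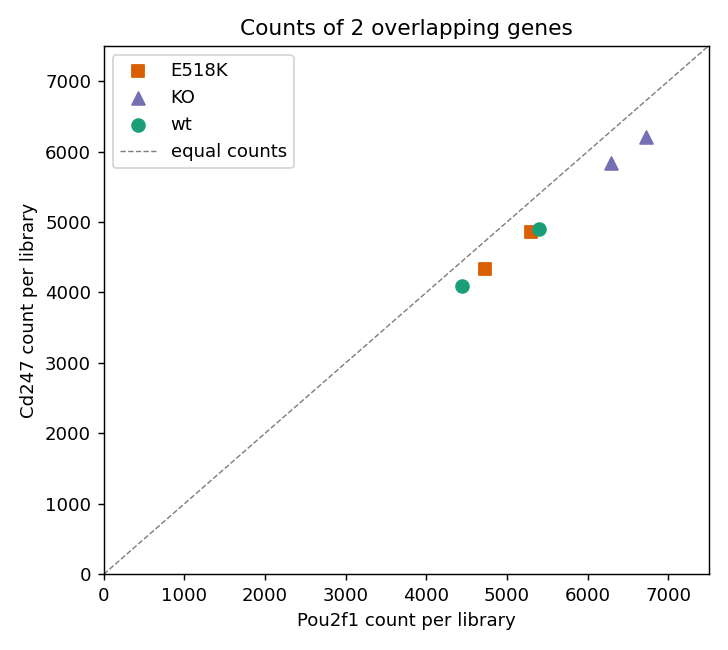
Counts of Cd247 (vertical axis) against counts of the overlapping Pou2f1 (horizontal axis) in the 6 libraries, with a dashed line at equal counts. The points lie along 1 line just below equality, with Cd247 at 0.906 to 0.926 of Pou2f1 in every group.

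Fcgr2b, on chromosome 1 (170958617 to 170976547, minus strand), showed 3 separate levels. It had 190 and 144 counts in E518K, 386 and 448 in KO, and 25 and 21 in wt. No library of one group reached the range of another. The levels were 0.815 ± 0.146 TPM in E518K, 2.06 ± 0.23 in KO and 0.116 ± 0.010 in wt, with log2 fold changes of 2.87 ± 0.27 in E518K against wt, 4.10 ± 0.27 in KO against wt and -1.23 ± 0.23 in E518K against KO. On the log2(TPM + 1) scale these were 0.70, 1.45 and -0.76. Its span overlaps an antisense noncoding model that has no row in the table, Gm38204, over 3175 bases, and reads from it would count for Fcgr2b. Of its neighbours, Fcrla, an Fc receptor-like gene 31033 bases away, had 0.524 ± 0.093 CPM in E518K, 0.498 ± 0.063 in KO and 0.327 ± 0.150 in wt, and Fcgr4, an activating Fc receptor gene, stayed at 0.116 CPM or less in each library. Of the 9 neighbours within 200 kb that were tested, 1 rose by edgeR in E518K against wt (2 by DESeq2 and at an unadjusted p under 0.05), and 1 rose and 1 fell in KO against wt. By edgeR 23.7% and 57.2% of all tested genes passed in these 2 comparisons.

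Gpr83, on chromosome 9 (14860210 to 14870789, plus strand) and far from the CD3 genes, had nearly the same level in E518K and KO. It had 243 and 247 counts in E518K, 243 and 225 in KO, and 25 and 34 in wt. The levels were 2.03 ± 0.06 TPM in E518K, 1.96 ± 0.09 in KO and 0.254 ± 0.065 in wt. Its log2 fold changes were 3.07 ± 0.24 in E518K against wt, 2.91 ± 0.24 in KO against wt and 0.16 ± 0.21 in E518K against KO, and on the log2(TPM + 1) scale 1.27, 1.24 and 0.03. Its neighbours had other levels. Izumo1r, which encodes the egg receptor Juno and lies 15024 bases away, had at most 0.0388 CPM, and Mre11a, a DNA repair nuclease gene 23086 bases away on the other side, had 56.5 ± 3.1 CPM in E518K, 48.1 ± 0.2 in KO and 55.9 ± 2.3 in wt.

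The B-cell receptor chains ran the other way. Cd79a, on chromosome 7 (24897381 to 24902197, plus strand), had 75 and 63 counts in E518K, 90 and 78 in KO, and 122 and 139 in wt. Both wt libraries were above all others, and E518K and KO overlapped once scaled to library size. The levels were 1.25 ± 0.13 TPM in E518K, 1.55 ± 0.15 in KO and 2.46 ± 0.33 in wt, with log2 fold changes of -0.90 ± 0.26 in E518K against wt, -0.71 ± 0.25 in KO against wt and -0.19 ± 0.26 in E518K against KO. The last value was -0.08 without KO library 1, -0.33 without E518K library 8 and -0.04 without E518K library 15. Among 10 tested genes within 200 kb, 4 fell in E518K against wt, where 12.5% of all tested genes fell. In KO against wt 2 rose and 6 fell, beside 27.4% and 29.7% of all tested genes. One of the neighbours that fell in both, Pou2f2, encodes a POU factor of B cells. It had 2.32 ± 0.57 CPM in E518K, 0.343 ± 0.083 in KO and 6.32 ± 2.50 in wt. It lies 185147 bases from Cd79a and was singled out after its values were seen.

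Cd79b, on chromosome 11 (106311341 to 106314762, minus strand), was listed as the partner of Cd79a and fell in both comparisons with wt. It had 33 and 36 counts in E518K, 5 and 12 in KO, and 82 and 106 in wt. The groups formed 3 levels with no overlap, E518K between KO and wt, at 0.884 ± 0.069 TPM in E518K, 0.221 ± 0.130 in KO and 2.50 ± 0.55 in wt. Against wt the log2 fold change was -1.43 ± 0.40 in E518K (edgeR adjusted p = 0.0397) and -3.52 ± 0.46 in KO (edgeR adjusted p = 0.000737). Between E518K and KO it was 2.10 ± 0.48 (edgeR adjusted p = 0.0112). The call in KO against wt held under all 14 alternatives, with a log2(TPM + 1) value of -1.51. The call in E518K against wt was lost without KO library 1 or 3 (edgeR adjusted p = 0.0581 and 0.0591) and without E518K library 8 or 15 (edgeR adjusted p = 0.18 and 0.19). That in E518K against KO was lost without KO library 1, E518K library 8 or E518K library 15 (1.61, 2.15 and 2.06; edgeR adjusted p = 0.0843, 0.0549 and 0.0578). The neighbours Scn4a, a muscle sodium channel gene, and Gh, the growth hormone gene, had at most 0.272 and 0.0416 CPM in a library. The summed B-cell markers given above were highest in the wt libraries too, though 0 of their 4 tested genes passed by edgeR or DESeq2 in any of the 3 comparisons (at an unadjusted edgeR p under 0.05, 1 in E518K against wt, 2 in KO against wt and 0 in E518K against KO) and Ms4a1, Blk and Cr2 had at most 3 counts in a library. The part of these markers in the Cd79a and Cd79b values was not tested.

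**Figure D4:**
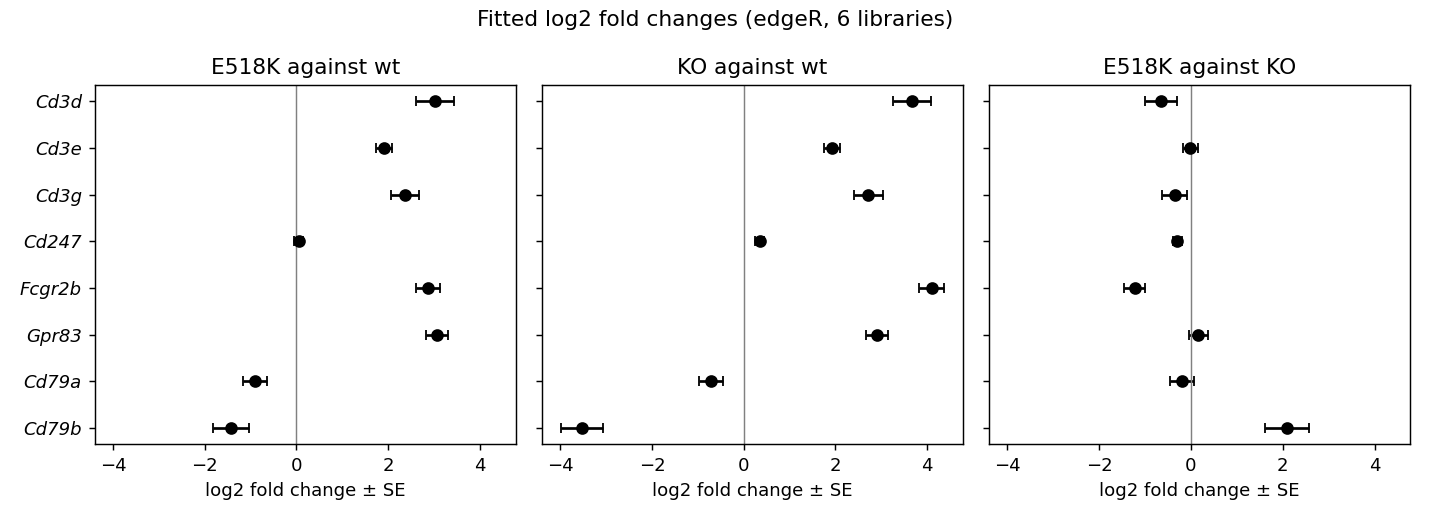
Fitted log2 fold change with its SE (horizontal axis) of the 8 genes (rows) in E518K against wt, KO against wt and E518K against KO. In both comparisons with wt, Cd3d, Cd3e, Cd3g, Fcgr2b and Gpr83 lie to the right of 0 and Cd79a and Cd79b to the left, and in E518K against KO Fcgr2b lies at -1.23 and Cd79b at 2.10.

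Read together, 5 of the 8 genes had both E518K libraries above both wt libraries, 2 had both below, and Cd247 overlapped, where 30.2% of all tested genes were above and 31.8% below without overlap. In KO against wt 6 were above and 2 below, against 40.1% and 41.6% of all tested genes. In E518K against KO 2 were above and 4 below and 2 overlapped, against 39.4% and 41.1%. Since 5 of the 8 were picked for their differences, nothing is read from these counts. The comparisons with wt share the wt libraries, so the like values of E518K and KO in the CD3 genes and Gpr83 are not independent of each other.

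miRNAs repress transcripts by pairing of their seed, bases 2 to 8, with sites in the 3′ UTR, and cells without DGCR8 make few canonical miRNAs. The levels of miRNAs were not analysed here. Mature sequences of 5 miRNAs known from embryonic stem cells or from differentiating cells, taken from RefSeq, are shown with the seed in capitals because the 3′ UTRs of the 8 genes were searched for their sites.
miR-291a-3p: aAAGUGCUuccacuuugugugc
miR-294-3p: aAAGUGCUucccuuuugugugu
miR-17-5p: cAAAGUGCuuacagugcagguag
miR-16-5p: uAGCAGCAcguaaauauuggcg
let-7a-5p: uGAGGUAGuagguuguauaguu
miR-291a-3p and miR-294-3p, of the cluster that is abundant in mouse embryonic stem cells, share a seed. Their site, AGCACTT, was found once in the 363-base 3′ UTR of Cd3g, at chr9:44969719-44969725 on the minus strand, and 15.4% of 18908 genes hold it. The miR-16-5p site TGCTGCT, held by 21.3% of genes, was found 4 times in overlap within a repeat in the 2397-base 3′ UTR of Fcgr2b, the first at chr1:170959730-170959736 on the minus strand.
Cd3g site: agaagtggAGCACTTgtcaacct
Fcgr2b first site: attcccctTGCTGCTgctgctgc
The other 6 genes, Cd3d, Cd3e and Gpr83 included, had none of the 4 sites in these UTRs, of 466 to 2188 bases.

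Other genes of T-cell receptor signalling moved in both directions. Of 25 tested genes of that list outside the 8, 2 rose and 2 fell in E518K against wt, 6 rose and 8 fell in KO against wt, and 6 rose and 4 fell in E518K against KO. Over all tested genes, 23.7%, 57.2% and 41.8% passed in these comparisons, in both directions. The median log2 fold changes of the list were -0.14, -0.11 and -0.04, beside -0.02, -0.03 and -0.02 over all genes. Cd4, the coreceptor gene, had 1.81 ± 0.31 CPM in E518K, 1.86 ± 0.17 in KO and 0.642 ± 0.048 in wt. It rose by 1.50 ± 0.26 in E518K against wt (edgeR adjusted p = 0.00947) and by 1.53 ± 0.26 in KO (edgeR adjusted p = 0.00232), and the first call was lost without E518K library 15 (edgeR adjusted p = 0.0832). Zap70, the kinase that binds phosphorylated CD3 and zeta chains, had 1.91 ± 0.17 CPM in E518K, 2.11 ± 0.60 in KO and 4.03 ± 0.66 in wt. It fell by 1.08 in E518K against wt and by 0.93 in KO (edgeR adjusted p = 0.0259 and 0.0177), calls lost without E518K library 8 or 15 (edgeR adjusted p = 0.106 and 0.175) and without KO library 3 (edgeR adjusted p = 0.147). Lck, the kinase that phosphorylates these chains, had 18.4 ± 0.01 CPM in E518K, 12.1 ± 1.3 in KO and 13.6 ± 4.4 in wt.

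Further members of that list differed between KO and wt. Nfatc2, a calcium-regulated transcription factor gene, had 1.99 ± 0.31 CPM in E518K, 7.55 ± 0.46 in KO and 2.45 ± 0.49 in wt, and rose in KO against wt by 1.62 ± 0.21 (edgeR adjusted p = 0.000745). Ctla4, the inhibitory coreceptor gene, had 12.9 ± 0.9 CPM in E518K, 8.46 ± 0.04 in KO and 14.2 ± 0.2 in wt, and fell by 0.75 in KO against wt (edgeR adjusted p = 0.00127). Cblb, a ubiquitin ligase that restrains T-cell signalling, had 11.9 ± 0.8 CPM in E518K, 9.11 ± 0.23 in KO and 16.1 ± 1.5 in wt, and fell by 0.82 in KO against wt (edgeR adjusted p = 0.00121). These 3 calls held without any 1 library.

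B-cell receptor signalling genes also moved both ways. Of 20 tested genes outside the 8, 2 rose and 1 fell in E518K against wt, 2 rose and 4 fell in KO against wt, and 2 rose and 2 fell in E518K against KO. The shares of all tested genes that passed were 23.7%, 57.2% and 41.8%. Dapp1, an adaptor downstream of the B-cell receptor, had 9.17 ± 0.98 CPM in E518K, 15.7 ± 0.7 in KO and 4.79 ± 0.96 in wt. It rose by 0.94 ± 0.17 in E518K against wt and by 1.71 ± 0.17 in KO (edgeR adjusted p = 0.0101 and 0.000238), the first lost without E518K library 15 (edgeR adjusted p = 0.0875). Pik3cd, the delta catalytic subunit of phosphoinositide 3-kinase, had 35.5 ± 2.0 CPM in E518K, 38.7 ± 0.7 in KO and 17.5 ± 4.2 in wt. It rose by 1.02 ± 0.15 in E518K against wt and by 1.14 ± 0.15 in KO (edgeR adjusted p = 0.00567 and 0.000792), the first lost without E518K library 15 (edgeR adjusted p = 0.0645). Vav2, which fell, had 14.9 ± 0.6 CPM in E518K, 14.5 ± 1.3 in KO and 21.5 ± 1.0 in wt. Its log2 fold changes from wt were -0.53 in E518K and -0.57 in KO (edgeR adjusted p = 0.015 and 0.00357). The first call was lost without E518K library 8 or 15 (-0.49 and -0.57), the second without KO library 1 (-0.48). Ptpn6 differed from wt by -0.23 in KO (edgeR adjusted p = 0.0375). That call was lost without KO library 1 or 3, E518K library 8 or 15, or wt library 16. Syk had 54.0 ± 1.8 CPM in E518K, 46.2 ± 0.4 in KO and 39.5 ± 9.5 in wt. Lyn had 6.21 ± 0.05 in E518K, 8.31 ± 0.79 in KO and 6.92 ± 1.93 in wt.

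Among 7 tested Fc receptor and ITAM adaptor genes other than Fcgr2b, 0 passed by edgeR in E518K against wt, 1 fell in KO against wt and 0 passed in E518K against KO, with the same counts by DESeq2 and at an unadjusted p under 0.05. By edgeR 23.7%, 57.2% and 41.8% of all tested genes passed. Fcer1g, the shared gamma chain of activating Fc receptors, had 0.345 ± 0.120 CPM in E518K, 0.252 ± 0.137 in KO and 0.198 ± 0.051 in wt. Fcgrt, the neonatal Fc receptor gene, was the one that fell, with 6.53 ± 0.01 CPM in E518K, 5.20 ± 0.28 in KO and 8.90 ± 3.37 in wt. Its change of -0.77 ± 0.25 in KO against wt (edgeR adjusted p = 0.0313) was lost without KO library 1 or 3, E518K library 8 or 15, or wt library 12 (edgeR adjusted p = 0.0992, 0.141, 0.0687, 0.0696 and 0.0772), the last with a value of -0.33.

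Lymphoid transcription factor genes also moved both ways, 3 rising and 2 falling of 22 tested in E518K against wt, 6 rising and 8 falling in KO against wt, and 6 rising and 3 falling in E518K against KO. Here too the shares of all tested genes that passed were 23.7%, 57.2% and 41.8%. Id3, an inhibitor of E-protein transcription factors, had 54.6 ± 0.2 CPM in E518K, 37.9 ± 2.4 in KO and 20.9 ± 0.3 in wt, and rose by 1.38 ± 0.08 in E518K against wt (edgeR adjusted p = 0.000511) and by 0.86 ± 0.08 in KO against wt (edgeR adjusted p = 0.000178). Tcf3, which encodes such E-proteins, had 176.0 ± 12.2 CPM in E518K, 124.4 ± 0.7 in KO and 194.4 ± 13.2 in wt, and fell by 0.65 in KO against wt (edgeR adjusted p = 0.000473). Of 8 tested genes tied to the Gpr83 ligand or to glucocorticoids, 1 rose and 1 fell in E518K against wt, 2 rose and 3 fell in KO against wt, and 2 rose and 1 fell in E518K against KO. Nr3c1, the glucocorticoid receptor gene, had 9.17 ± 0.88 CPM in E518K, 24.4 ± 0.3 in KO and 7.25 ± 1.95 in wt, and rose by 1.75 ± 0.19 in KO against wt (edgeR adjusted p = 0.000305). Fkbp5, a glucocorticoid-induced cochaperone gene, had 143.0 ± 2.9 CPM in E518K, 84.1 ± 0.5 in KO and 161.9 ± 13.0 in wt, and fell by 0.95 in KO against wt (edgeR adjusted p = 9.1e-05).

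Over the 5 lists together, 14 of 82 tested genes passed in E518K against wt, 40 in KO against wt and 26 in E518K against KO, beside 23.7%, 57.2% and 41.8% of all genes. Without 1 library the first count was 8 without either KO library, 5 and 3 without E518K library 8 or 15, and 27 and 33 without wt library 12 or 16. The second was 21 without either KO library. The third was 11, 9, 12 and 13 without KO library 1, KO library 3, E518K library 8 or E518K library 15.

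For each of 4 receptor genes, the tested genes nearest in pattern over the 6 libraries were found. The measure was the root mean square difference of centred log2 CPM. Models with symbols of predicted genes, such as those starting with Gm or ending in Rik, were passed over and could lie nearer. Nearest to Cd3d were Ubd, which encodes a ubiquitin-like modifier, at 0.337, Hoxa13, a homeobox gene, at 0.367 and Sytl5, a synaptotagmin-like gene, at 0.386. Nearest to Cd3e were Htr7, a serotonin receptor gene, at 0.136, RP23-190O13.7 at 0.153 and Nxph2 at 0.159. Nearest to Fcgr2b were Ubd at 0.306, Sh2d1a, which encodes the lymphocyte signalling adaptor SAP, at 0.307 and Hoxa13 at 0.334. Nearest to Gpr83 were C1qtnf1 at 0.266, Fbxw14 at 0.288 and the homeobox gene Hoxd4 at 0.288. Ubd was the only one of these above 2 CPM in any library, with 22.4 ± 2.8 CPM in E518K, 45.5 ± 2.1 in KO and 4.06 ± 0.17 in wt. Sh2d1a had 0.200 ± 0.090 CPM in E518K, 0.609 ± 0.202 in KO and 0.0138 ± 0.0195 in wt. These genes were selected for their likeness to the receptor genes, so their values are a description.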

How the data were processed

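Per the labels' protocols, oligo-dT selected RNA was primed with hexamers and read from both ends on a BGISEQ-500. The authors deposited raw counts per gene symbol for the 6 libraries, and a second table of TPM values that they computed from those counts. The submitters' processing notes name STAR, bedtools and GRCm38.p6, without versions or settings. The length implied by the deposited count and TPM was within 5% of the genomic span for 98.2% of 18857 genes, and of the exonic length for 3.64%. Where a gene lay inside another, the larger span had at least as many counts in 99.7% of 373 pairs on the same strand and 99.2% of 356 on opposite strands, so counts appear to cover introns and both strands. Even counts made up 60.6% to 65.8% of values from 20 to 199, and the sources used here do not say whether mates were counted separately.

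Counts were tested with edgeR 4.0.16 in R 4.3.3 (TMM factors, filterByExpr with a minimum count of 10, robust quasi-likelihood F test). All 6 libraries entered 1 fit with group as its term, and 3 residual degrees of freedom remained. The common biological coefficient of variation was 11.9%. All 8 genes passed the filter, which kept 16498 genes, and p-values were adjusted by Benjamini and Hochberg over all of them. CPM used the TMM factors. Replicates differed by more than counting noise, with 21.6 (E518K), 3.55 (KO) and 51.4 (wt) as chi-square divided by its degrees of freedom, and p-values measure only the spread between these libraries. Alternatives used DESeq2 1.42.0 and limma 3.58.1 as well, the latter on log2(TPM + 1) and log2(TPM + 0.1). The filter, tests and fits were tested on simulated data.

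The 8 genes and the gene lists were chosen with earlier results of these data known. From each list up to 4 genes with the smallest p and an average log2 CPM of at least 0 could be named, with Fcer1g, Lck, Zap70, Syk, Lyn and Ptprc, the nearest gene on either side of each receptor gene, and the 3 genes nearest in pattern to Cd3d, Cd3e, Fcgr2b and Gpr83. Other marker genes are named to show levels near 0 or well above it. Cd2 and Pou2f2 were named after their values were seen. Promoters of 7 of the 8 genes and the miRNAs were matched in RefSeq tables of GRCm38.p6, and 3′ UTRs came from GENCODE M21.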

Additional observations from a re-analysis of the deposited data

How the results depend on the processing

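No paired analysis was possible because the groups share no replicate numbers. Of the tested receptor genes, Cd3g kept its direction and its side of the threshold in each comparison under all 14 alternatives, and so did Cd79b in KO against wt. The difference of Cd247 between E518K and wt, 0.05 in log2, changed sign with limma on log2(TPM + 1) (-0.011) and log2(TPM + 0.1) (-0.012) and with upper-quartile factors (-0.002), and ranged from -0.059 to 0.168 without 1 library. The difference of Cd3e between E518K and KO, -0.02, ranged from -0.075 to 0.056 without 1 library, the last without E518K library 8. Cd247 lost its call in KO against wt with the KO libraries summed (0.348), limma on log2(TPM + 1) (0.331) and log2(TPM + 0.1) (0.388), and ranged from 0.235 to 0.460 without 1 library. In E518K against KO it lost its call with upper-quartile factors (-0.291), the KO libraries summed (-0.298), limma on log2(TPM + 1) (-0.342) and on log2(TPM + 0.1) (-0.400), and ranged from -0.355 to -0.220 without 1 library. Cd79b lost its call in E518K against wt with only these groups fitted (-1.417) and with the KO libraries summed (-1.426), ranging from -1.584 to -1.246 without 1 library, and in E518K against KO it ranged from 1.607 to 2.850.

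The counts of called genes moved most where libraries were fewer. With only the E518K and wt libraries fitted, 1999 genes and 8 list genes were called in place of 3917 and 14. With the KO libraries summed to 1, the calls were 1909 in E518K against wt, 6163 in KO against wt and 3267 in E518K against KO, with 8, 20 and 9 list genes in place of 14, 40 and 26, and 12 and 8 genes near the receptor genes in place of 23 and 18 in the last 2 comparisons. Without 1 library, all calls ranged from 644 to 6987, 6084 to 10958 and 3285 to 9482 in these comparisons. Calls in the lists ranged from 3 to 33, 21 to 49 and 9 to 39, and calls of genes near the receptor genes from 1 to 20, 10 to 30 and 7 to 23. The share of calls that were higher in E518K than in wt was 47.5%, against 37.5% with upper-quartile factors and 26.8% and 28.3% with limma at the larger and smaller pseudocount, and for E518K against KO it was 52.7%, against 40.7% and 42.3% with limma. The cause was not tested.

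With 2 libraries a group, errors rest on a spread pooled over groups. The KO libraries, whose spread may be technical, thus also enter the p-values of E518K against wt. Counts of 5 to 139 for the B-cell receptor chains, and of 21 to 48 for Cd3d, Cd3g, Fcgr2b and Gpr83 in wt, limit the precision of their fold changes, and pseudocounts on the TPM scale shrink them.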
